A study of Mus musculus with 6 samples.

Results

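The genes described here encode the nuclear subunits of the 5 oxidative phosphorylation complexes, taken by symbol: every gene whose symbol begins with Nduf, Sdha to Sdhd, Uqcr, Atp5 or a cytochrome c oxidase subunit name. By this rule 90 of the 18194 genes measured were members: 34 subunits of complex I, 4 of complex II, 8 of complex III, 19 of complex IV and 17 of complex V, with 8 complex I assembly factors that share the Nduf prefix. They were read on Affymetrix Mouse Genome 430 2.0 arrays of colon epithelium from 12-week-old mice of mixed 129SvEv, C57BL/6 and DBA/2 background. The knockout group (vil-Cre-Bcl9-/-/Bcl9l-/-, 3 arrays) lacks both Bcl9 and Bcl9l, cofactors of beta-catenin, in cells that express Cre from the villin promoter, which is active in gut epithelium. The wild type group had 3 arrays. Each array held RNA pooled from mice: 3, 2 and 2 mice in knockout 1, 2 and 3, and 3 mice in each of wild type 4, 5 and 6. Cre is named for the knockouts alone, so an effect of Cre and the loss of the 2 genes cannot be told apart. The epithelium was detached with EDTA and DTT and was not sorted, and in such bulk samples fewer cells of a type and less RNA per cell cannot be told apart.

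Oxidative phosphorylation passes electrons from NADH (complex I) and succinate (complex II) through complex III and cytochrome c to oxygen at complex IV. The proton gradient that complexes I, III and IV build drives ATP synthesis by complex V. Most subunits are encoded in the nucleus and the rest in mitochondrial DNA. Colonocytes rely on it heavily, since they oxidise butyrate made by gut bacteria. Nuclear respiratory factor 1 (NRF1), the ETS factor GABPA, YY1 and the oestrogen-related receptor alpha (ERRalpha) are known regulators of many of these genes.

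Promoter windows of the members are shown first, because shared control is what such a gene group is known for. RefSeq windows (GRCm38.p6, 250 bases before to 50 after the start) were matched for 74 of the 90 members, giving 79 windows of 32851. The 4 strings, searched on both strands and allowed to overlap, stood for the factors: GCGCANGCG for NRF1, CCGGAAG for ETS factors, AANATGGCG for YY1 and TNAAGGTCA for ERRalpha. In each complex the member whose window held most of the 4 motifs is printed, ties going to the smaller unadjusted p (in complex V, Atp5g3 tied at 2 motifs with others), from 200 bases before to 30 after its start, with matches in capitals. The windows are Ndufb4 (chr16:37654339-37654568, minus strand), Sdhd (chr9:50603820-50604049, minus strand), Uqcr11 (chr10:80406792-80407021, minus strand), Cox6a1 (chr5:115348929-115349158, minus strand) and Atp5g3 (chr2:73911297-73911526, minus strand).
Ndufb4: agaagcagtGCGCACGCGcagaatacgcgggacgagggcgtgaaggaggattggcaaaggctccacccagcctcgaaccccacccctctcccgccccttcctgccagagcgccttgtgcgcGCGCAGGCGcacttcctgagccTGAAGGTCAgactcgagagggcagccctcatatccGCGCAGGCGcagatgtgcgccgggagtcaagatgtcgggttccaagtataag
Sdhd: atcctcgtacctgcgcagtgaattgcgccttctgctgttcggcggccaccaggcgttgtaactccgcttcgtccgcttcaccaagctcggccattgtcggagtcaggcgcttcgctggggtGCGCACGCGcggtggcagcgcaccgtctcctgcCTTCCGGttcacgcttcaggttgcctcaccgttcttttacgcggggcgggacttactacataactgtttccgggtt
Uqcr11: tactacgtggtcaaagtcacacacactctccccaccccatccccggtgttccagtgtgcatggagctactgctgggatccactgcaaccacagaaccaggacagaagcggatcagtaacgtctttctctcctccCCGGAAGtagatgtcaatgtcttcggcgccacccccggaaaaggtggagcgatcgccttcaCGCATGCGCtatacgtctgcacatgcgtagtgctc
Cox6a1: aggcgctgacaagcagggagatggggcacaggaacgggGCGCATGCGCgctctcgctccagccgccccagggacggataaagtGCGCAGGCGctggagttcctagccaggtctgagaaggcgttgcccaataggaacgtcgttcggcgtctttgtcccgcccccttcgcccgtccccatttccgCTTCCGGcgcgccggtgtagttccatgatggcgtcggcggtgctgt
Atp5g3: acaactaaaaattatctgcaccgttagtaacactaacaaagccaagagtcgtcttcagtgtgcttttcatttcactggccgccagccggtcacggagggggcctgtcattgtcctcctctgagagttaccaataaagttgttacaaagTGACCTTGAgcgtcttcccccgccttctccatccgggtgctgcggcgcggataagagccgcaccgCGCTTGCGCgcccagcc

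The NRF1 string stood in 21 of the 79 member windows (26.6%) and in 6.25% of all windows. The ETS string stood in 19 (24.1%) against 8.86% of all windows, YY1 in 10 (12.7%) against 2.38%, and ERRalpha in 3 (3.8%) against 1.28%. At least 1 of the 4 was present in 42 member windows (53.2%) and in 16.6% of all windows. Ndufb4 carries 3 NRF1 matches and 1 ERRalpha match in the stretch above, and Cox6a1 carries 3 NRF1 matches, a pair of them the same palindrome read on both strands, with an ETS match 16 bases before its start. The NRF1 string was first searched with 1 more C at its 3' end and shortened after its shares were seen; the longer form stood in 18 member windows (22.8%) and 4.6% of all windows. A match is a description of letters and no evidence of binding.

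**Figure D1:**
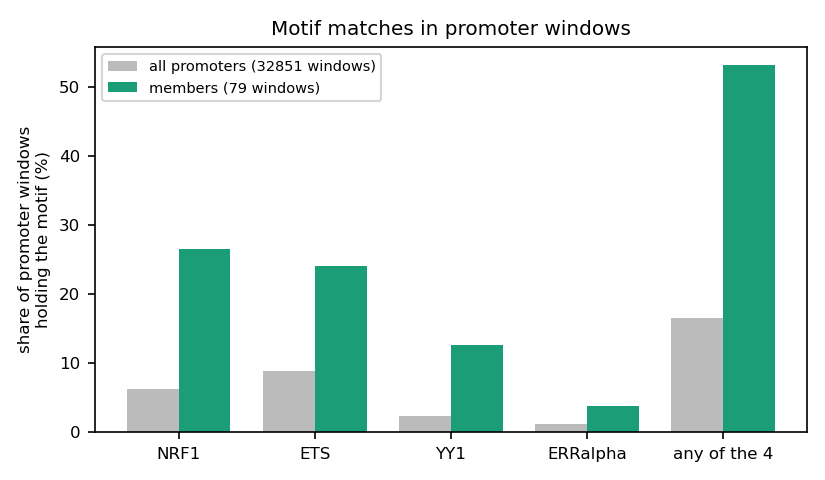
Share of RefSeq promoter windows (%) that hold each motif, for the 79 member windows and for all 32851 windows; bars start at 0. Each of the 4 motifs, and any of them together, was found in a larger share of the member windows than of all windows.

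Members with and without a match are compared by their median difference between the groups, with no test. With the NRF1 string, 20 members had a median difference (knockout minus wild type, log2) of 0.0048, and 54 without it had 0.028. For the longer NRF1 form the medians were 0.0027 over 17 members and 0.029 over 57. With the ETS string the median was 0.029 over 19 members and without it 0.011 over 55. With YY1 it was 0.045 over 10 and without it 0.014 over 64. The 3 members with ERRalpha (Ndufb4, Atp5g3 and Sdhd, whose match begins 36 bases after the start, outside the stretch printed) had a median of -0.21, against 0.028 for the other 71; 3 genes carry little weight.

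Array medians lay between 5.44 and 5.58 (log2), and arrays correlated at 0.975 to 0.990 over all probe sets. Bcl9 differed by 0.11 (adjusted p = 0.977, limma) and Bcl9l by 0.22 (adjusted p = 0.954), both higher in the knockouts; the labels do not place these probes relative to the deleted parts, so this checks no label. Of 10 epithelial markers 9 read above the median gene, and 5 lay above 0 and 5 below (median -0.001); the dim Cldn4 stood at -1.19, lower in every knockout array (adjusted p = 0.953, limma). B and plasma cell markers stood lower in the knockouts for 11 of 11 genes (median -1.44), and wild type 6 alone was high in them (list level 2.69, others -0.78 to -0.02). T cell markers were lower in 9 of 9 (median -0.49) and fibroblast markers in 6 of 7 (median -0.39). Wild type 6 was the highest array in these lists too. T cell list levels were -0.32, -0.47 and -0.087 in knockouts 1 to 3 and 0.098, -0.042 and 0.70 in wild types 4 to 6. Fibroblast list levels were -0.17, -0.35 and -0.14 against -0.039, 0.037 and 0.70. In both lists every wild type level lay above every knockout level. The knockout arrays lay all below the wild type arrays in 4 of 9 T cell and 4 of 7 fibroblast markers, against 4.83% of all genes. No gene of either list was called. A fit with the B and plasma cell level as a covariate is given below. That level was high in wild type 6 alone, so this fit and leaving out wild type 6 are not separate checks. The part of the other cells was not tested.

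No member passed the test (limma, Benjamini-Hochberg over all genes, threshold 0.05), where 0 of 18194 genes (0%) did. The smallest adjusted p was 0.953 among members and 0.291 among all genes. At an unadjusted p under 0.05, 0 members stood higher and 0 lower, against 490 genes higher (2.69%) and 367 lower (2.02%). The knockout arrays all lay above the wild type arrays in 7 members (Ndufs4, Ndufc1, Ndufs1, Ndufb9, Ndufa12, Atp5g3 and Atp5j), against 5.5% of all genes, and all below in 3 (Cox6a2, Cox7b2 and Cox7a2l), against 4.83%. Member differences ran from -0.36 to 0.43. Their median was 0.017 (51 above 0, 39 below), beside 0.0096 over all genes (9493 above 0, 8701 below). Among genes brighter than the median gene, the median was 0.020 over 80 members, beside 0.048 over all 9097 such genes. The members are mostly bright, 72 of them above the 90th percentile of level, and differences of bright genes are smaller. The median size of a difference was 0.066 in members, 0.072 over genes above that percentile and 0.115 over all genes. A difference over 0.2 was seen in 7 members (7.78%), against 11.9% of the bright genes and 27.8% of all genes. The 95% confidence interval lay within a 1.5-fold change either way for 80 members (88.9%), against 65.6% of all genes and 87.4% of genes above the 90th percentile of level. It lay within 2-fold for 88, the exceptions being Cox7c and Cox8b.

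**Figure D2:**
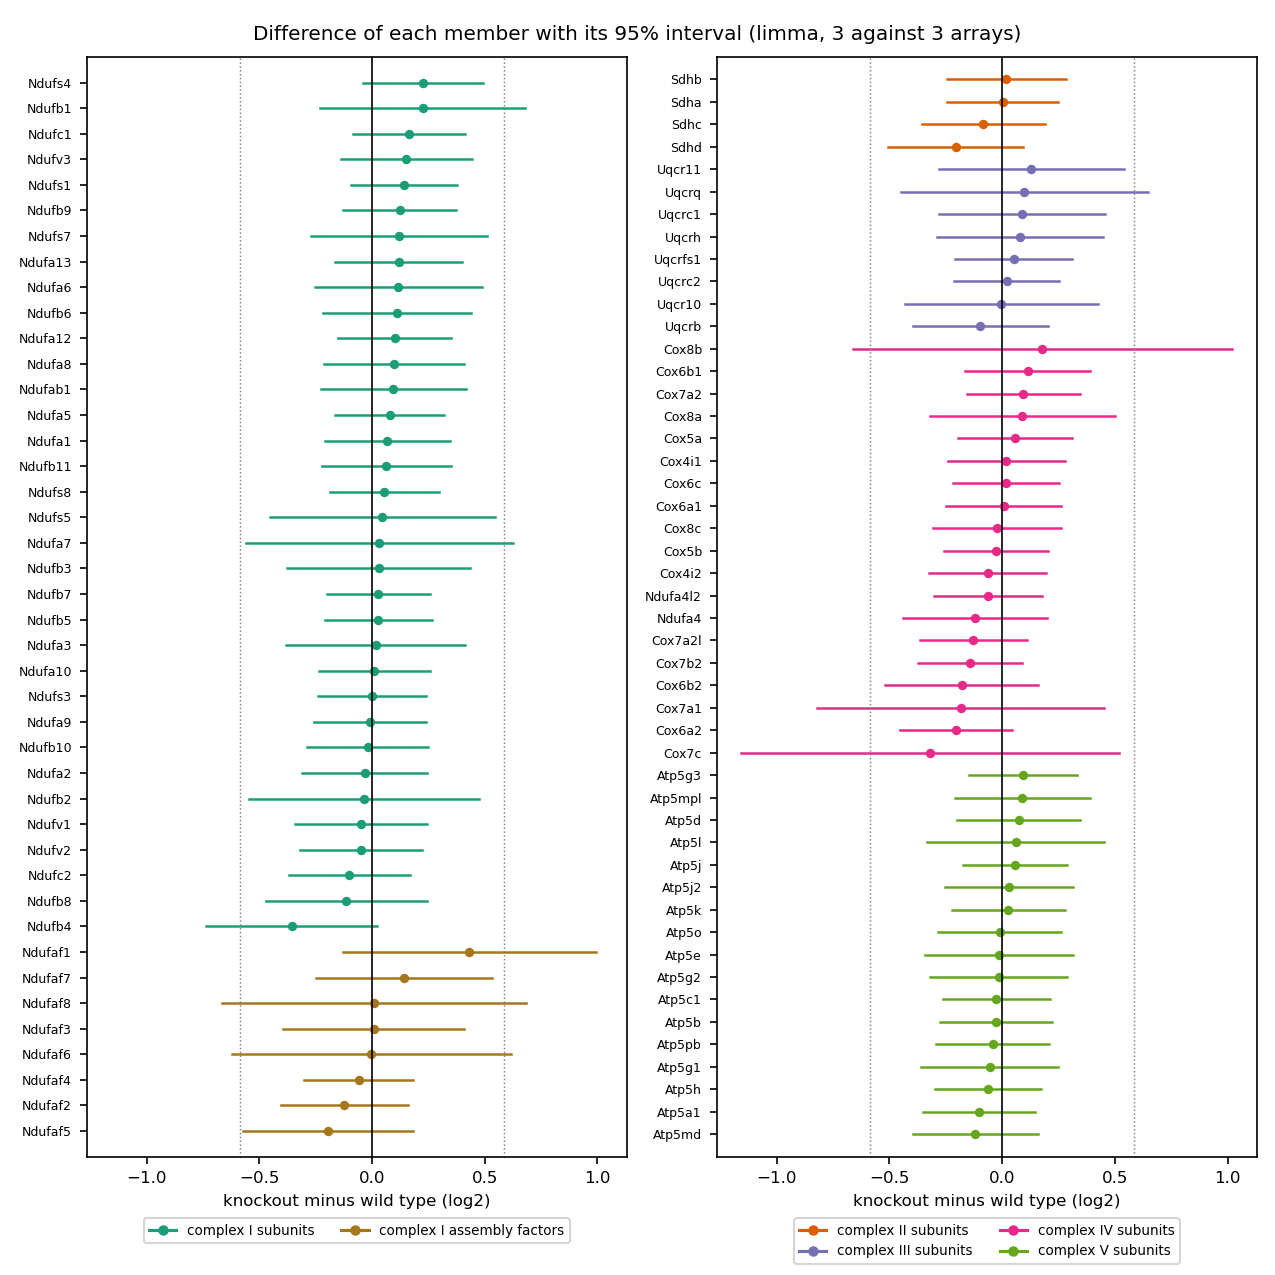
Difference of each member, knockout minus wild type (log2), by complex, with its 95% confidence interval. The points run from -0.36 (Ndufb4) to 0.43 (Ndufaf1).

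Complex I oxidises NADH and is the largest of the chain. Of its 34 subunits 24 lay above 0 and 10 below (median 0.051). Over all genes brighter than the median gene the median was 0.048. Without knockout 1 the median of complex I was 0.0013. Ndufs4, an accessory subunit needed for a stable complex, read 12.11, 11.87 and 12.01 in knockouts 1 to 3 and 11.76, 11.83 and 11.73 in wild types 4 to 6. The groups did not overlap, and the difference was 0.23 (SE 0.11, adjusted p = 0.953, limma), 0.15 to 0.34 over the alternatives; its other 3 probe sets gave 0.018 to 0.20. Ndufc1 read 12.94, 12.80 and 12.83 against 12.63, 12.76 and 12.69, a difference of 0.16 (SE 0.11), with the lowest knockout only just above the highest wild type.

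Ndufs1 carries iron-sulphur clusters of the electron path and read 10.23, 10.21 and 10.17 against 10.11, 10.07 and 10.01. Its groups did not overlap and differed by 0.14 (SE 0.099). Ndufv3 read 13.34, 13.05 and 13.21 against 12.94, 13.15 and 13.05, a difference of 0.15 (SE 0.12) with overlapping groups; it was 0.083 without knockout 1 and 0.0997 without wild type 4. Among the core subunits, differences beside that of Ndufs1 were as follows. Ndufs3 differed by -0.00065 (interval -0.24 to 0.24), Ndufs7 by 0.12 (-0.27 to 0.51) and Ndufs8 by 0.055 (-0.19 to 0.30). Ndufv1, the NADH-binding subunit, differed by -0.047 (-0.34 to 0.25), and Ndufv2 by -0.050 (-0.32 to 0.22).

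Ndufb4, an accessory subunit, had the most negative difference of the complex. It read 5.15, 4.63 and 4.91 against 5.28, 5.11 and 5.37, a difference of -0.36 (SE 0.16), or -0.22 without knockout 2. The groups overlap, since knockout 1 lay just above wild type 5. This probe set stood at the 34.2 percentile of all genes. Near-identical copies (Ndufb4b, Ndufb4c) may make its reading uncertain, which was not tested. Over the whole list, 10 probe sets that name a member beside another symbol were not read. Ndufb1, also dim at percentile 48.0, differed by 0.22 (SE 0.19). Over the 9 genes named Ndufs or Ndufv, core and accessory, 6 lay above 0 (median 0.055), and over the 25 other subunits 18 did (median 0.032).

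**Figure D3:**
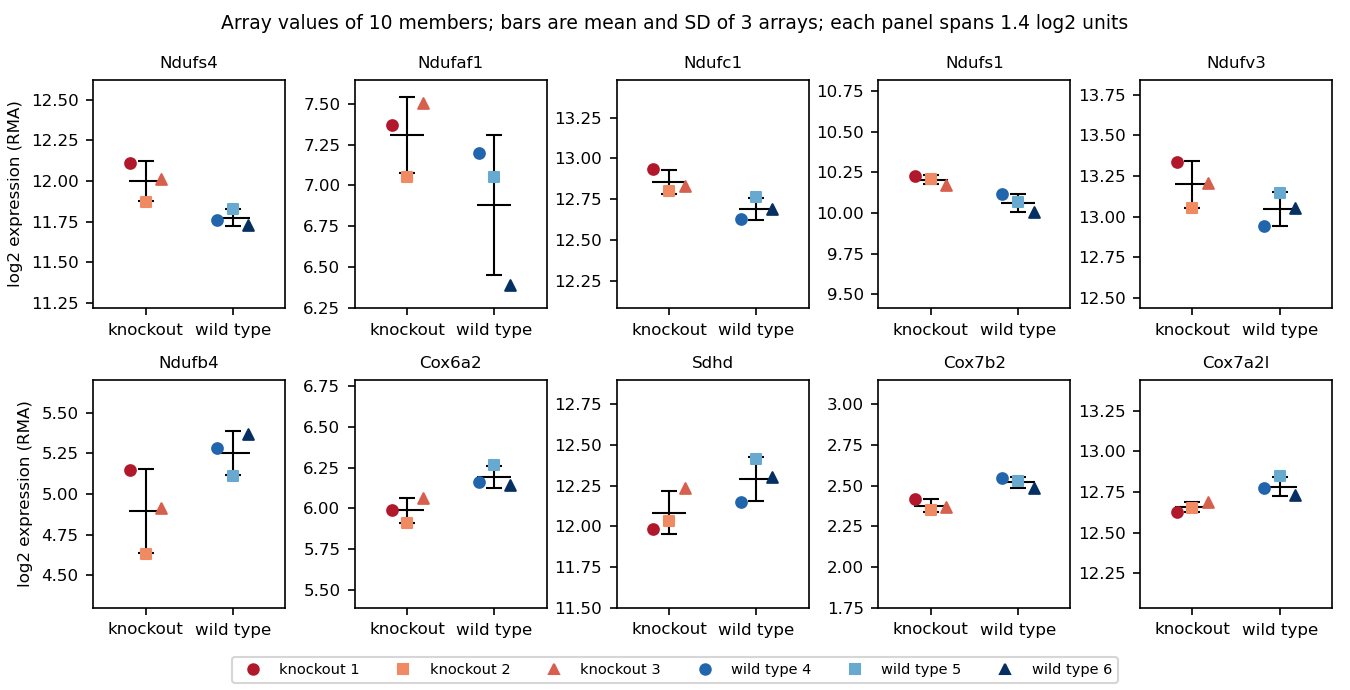
Deposited log2 values of the 5 members with the smallest unadjusted p in each direction; points are arrays, 3 knockout and 3 wild type. In Ndufs4 all knockout arrays (11.87 to 12.11) lie above the wild type arrays (11.73 to 11.83), and in Ndufb4 the groups overlap.

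The 8 complex I assembly factors, which help build the complex and are not part of it, split 4 above 0 and 4 below (median 0.0025). Ndufaf1 had the largest positive difference of all members: it read 7.37, 7.05 and 7.51 against 7.20, 7.05 and 6.39. The groups overlap, wild type 6 was the lowest array, and the difference was 0.43 (SE 0.24). The difference was 0.19 without wild type 6. It was 0.15 with the B and plasma cell level, high in wild type 6 alone, as a covariate, which is no separate check. Ndufaf5 differed by -0.20 (SE 0.16), Ndufaf7 by 0.14, Ndufaf2 by -0.12 and Ndufaf4 by -0.060. Ndufaf3, Ndufaf6 and Ndufaf8 differed by under 0.01. The intervals of Ndufaf6 (-0.62 to 0.62) and Ndufaf8 (-0.66 to 0.68) were among the widest of the members.

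Complex II, succinate dehydrogenase, also works in the citric acid cycle. Its flavoprotein Sdha differed by 0.0027 (interval -0.24 to 0.25), the iron-sulphur subunit Sdhb by 0.019 (-0.25 to 0.28) and the membrane anchor Sdhc by -0.083 (-0.36 to 0.19). The other anchor, Sdhd, read 11.98, 12.03 and 12.23 in the knockouts and 12.15, 12.41 and 12.30 in the wild types. That is a difference of -0.21 (SE 0.13) with overlapping groups, and its other probe set gave -0.024.

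Complex III passes electrons from ubiquinol to cytochrome c. Of its 8 members 6 lay above 0 (median 0.066). The Rieske protein Uqcrfs1 differed by 0.051 (interval -0.21 to 0.31), Uqcrc1 by 0.088 (-0.28 to 0.46) and Uqcrc2 by 0.021 (-0.21 to 0.25). Uqcr11 read 11.69, 11.16 and 11.64 against 11.42, 11.48 and 11.19, the most positive of the complex (0.13, SE 0.17), and Uqcrb was the most negative (-0.096, SE 0.13). In Uqcr11 knockout 2 lay below every wild type array while knockouts 1 and 3 lay above them.

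Complex IV reduces oxygen, and several of its subunits have isoforms of muscle, testis or lung. Of its 19 members 8 lay above 0 and 11 below (median -0.027). Of the widely expressed forms Cox4i1 differed by 0.019 (interval -0.24 to 0.28), Cox5a by 0.057 (-0.20 to 0.31), Cox5b by -0.027 (-0.26 to 0.20), Cox6a1 by 0.0069 (-0.25 to 0.26), Cox6b1 by 0.11 (-0.16 to 0.39) and Cox6c by 0.018 (-0.22 to 0.25). Cox7a2 differed by 0.094 (-0.16 to 0.35) and Cox8a by 0.090 (-0.32 to 0.50). Cox7c had the most negative difference of the complex (-0.32, SE 0.35). It read 6.83, 5.60 and 5.95 against 6.29, 6.11 and 6.94, with overlapping groups. This probe set was dim, at percentile 47.5 of all genes. The other Cox7c probe set, at percentile 30.9 of the probe sets tested, gave 0.20. Ndufa4, now counted with this complex, differed by -0.12 (-0.44 to 0.20).

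Of the tissue-restricted forms, Cox4i2, Cox6a2, Cox6b2, Cox7b2, Cox8b, Cox8c and Ndufa4l2 read below the median gene, and Cox7a1 read at percentile 88.8. Cox6a2, the heart and muscle form, read 5.99, 5.91 and 6.06 against 6.16, 6.27 and 6.14. Its groups did not overlap (-0.21, SE 0.11), at percentile 45.5 of all genes, and its other probe set gave -0.12. Cox7b2 did not overlap either (-0.14, SE 0.098), at percentile 1.43. Cox7a2l, a factor in joining complexes III and IV, read 12.63, 12.65 and 12.69 against 12.77, 12.85 and 12.73. The groups did not overlap and differed by -0.13 (SE 0.10), and its other probe sets gave -0.17 and -0.03. Cox7c and Cox8b had the widest intervals (-1.16 to 0.52 and -0.66 to 1.02).

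Complex V makes ATP. Of its 17 members 7 lay above 0 (median -0.013), within -0.12 (Atp5md) and 0.092 (Atp5g3). Its catalytic beta subunit Atp5b differed by -0.028 (interval -0.28 to 0.22), the alpha subunit Atp5a1 by -0.10 (-0.35 to 0.15) and the gamma subunit Atp5c1 by -0.025 (-0.26 to 0.21). Atp5d differed by 0.074 (-0.20 to 0.35) and Atp5e by -0.013 (-0.34 to 0.32). The 3 Atp5g genes encode the same mature ring subunit c: Atp5g3 read 13.30, 13.30 and 13.44 against 13.28, 13.25 and 13.24 with no overlap (0.092, SE 0.10), Atp5g1 differed by -0.055 and Atp5g2 by -0.014.

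Knockout 1 was the highest array in 52 of 90 members (57.8%), against 21.8% of all genes and 23.6% of genes above the 90th percentile of level, a comparison chosen after the values were seen. The lowest array was knockout 2 in 38 members (42.2%, against 17.3% of all genes and 20.2% of those bright genes). Wild type 6 was the lowest in 36 (40%, against 30.8% and 25.2%). Knockout 1 exceeded knockout 2 in 76 members, by a median of 0.21, where the median was 0.045 over all genes and 0.00086 over the bright genes. The largest such gaps were Cox7c 1.23, Ndufaf8 0.91, Uqcrq 0.90 and Ndufs5 0.82. Knockout 1 was highest in 25 of 34 complex I subunits and 7 of 8 of complex III, but in 1 of 4 of complex II and 6 of 19 of complex IV.

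The array levels of the list (median of value minus the gene's mean) were 0.116, -0.084 and 0.029 in knockouts 1 to 3 and 0.024, 0.041 and -0.097 in wild types 4 to 6. The split of signs follows these arrays. Without knockout 1, 34 members lay above 0 and 56 below, without knockout 2, 63 and 27, and without wild type 6, 36 and 54. The range within a group exceeded the difference between groups in 85 of 90 members (94.4%), as in 95.4% of all genes. With the B and plasma cell level as a covariate 32 members lay above 0 and 58 below. That level was high in wild type 6 alone, so the fit is no separate check from leaving that array out. Knockouts 2 and 3 were the only pools of 2 mice, so pool size cannot be told apart from these arrays: with the number of mice as a covariate the fit sets knockout 1 alone against the wild types (68 members above 0, 22 below).

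**Figure D4:**
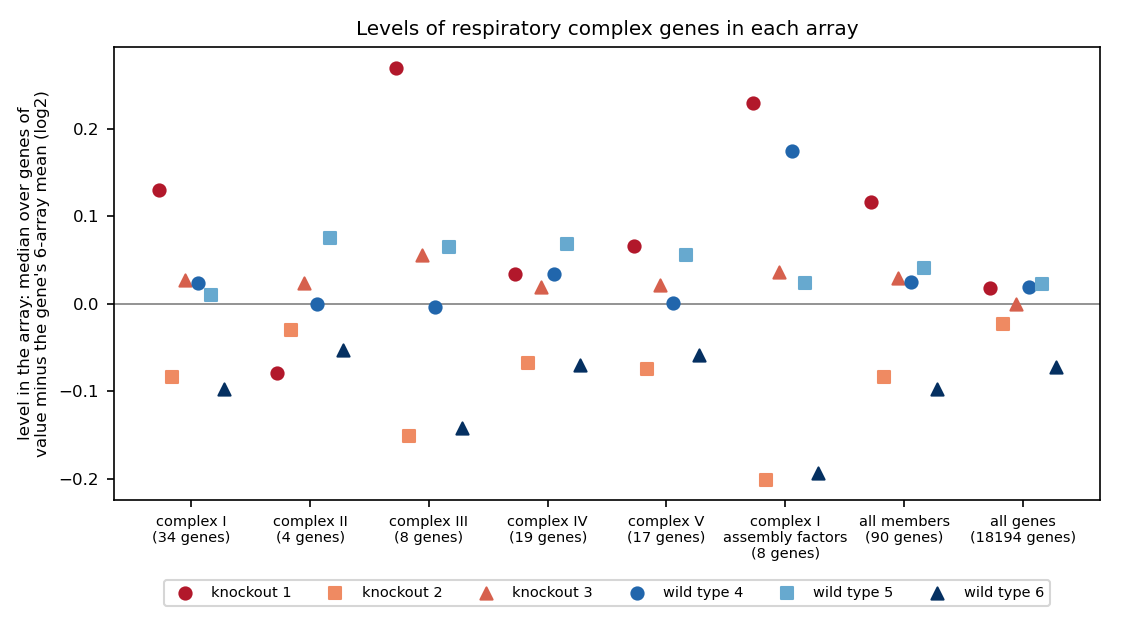
Level of each complex in each array (median over its members of the log2 value minus the gene's mean over the 6 arrays). Knockout 1 stands highest in complex III (0.270) and knockout 2 lowest there (-0.151).

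**Figure D5:**
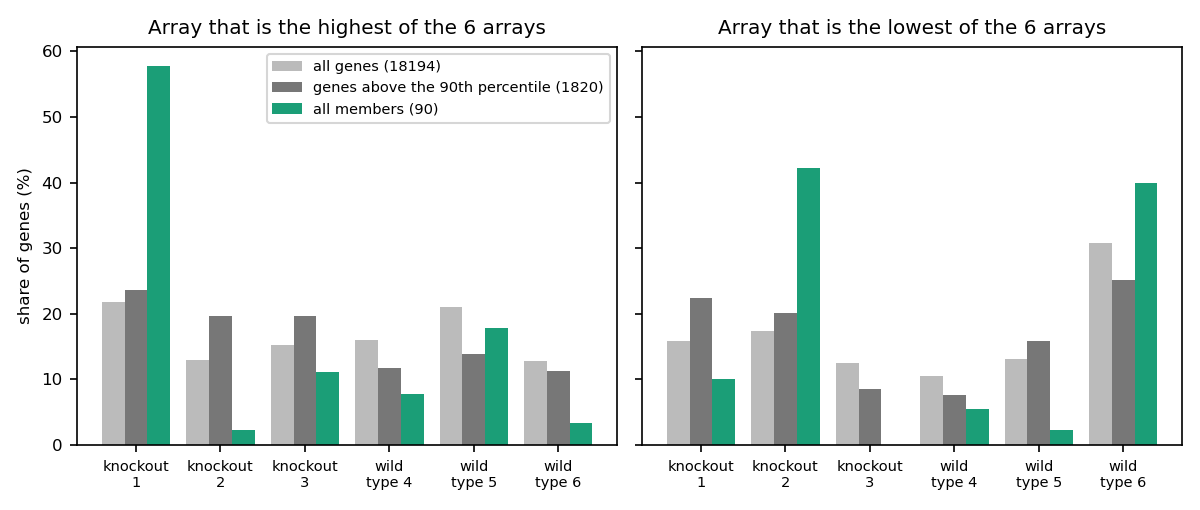
Share of genes (%) for which each array is the highest or the lowest of the 6, for members and for all genes. Knockout 1 is highest in 57.8% of members and 21.8% of all genes.

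Of the members' 179 probe sets 101 lay above 0 and 78 below (median 0.018), and 0 of the 45037 probe sets tested passed (0%). At an unadjusted p under 0.05 stood 0 member probe sets higher and 1 lower, against 1033 higher and 834 lower among the 45037 tested. The 1 was a dim probe set of Uqcrq that read 4.25, 4.39 and 4.24 against 4.50, 4.70 and 4.90 (-0.40, SE 0.14, adjusted p = 0.991, limma). The brighter Uqcrq probe set gave 0.098. Among 51 members with several probe sets, all had the same sign in 26.

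Neighbouring genes of the pathway were also not called. Of 7 other respiratory chain genes 2 lay above 0 (median -0.012), with cytochrome c1 (Cyc1) at -0.01 and cytochrome c (Cycs) at -0.0016. Assembly factors outside the naming rule stood above 0 in 31 of 37 (median 0.091, but -0.0017 without wild type 6 and -0.018 with the B and plasma cell level as a covariate), led by Ttc19, a complex III factor, at 0.42 (SE 0.13, adjusted p = 0.953, limma). Mitochondrial ribosomal proteins stood above 0 in 44 of 76 (median 0.042, but -0.091 without knockout 1 and -0.058 without wild type 6). Their array levels, 0.205, -0.172 and 0.014 against 0.037, 0.112 and -0.214, were highest in knockout 1 as in the members. Regulators of biogenesis stood above 0 in 16 of 20 (median 0.084, but 0.024 after cyclic loess normalisation). The mitochondrial RNA polymerase Polrmt differed by 0.36 (SE 0.15) and the coactivator Ppargc1a by -0.30 (SE 0.20). Citric acid cycle and pyruvate dehydrogenase genes stood above 0 in 12 of 17 (median 0.026, but -0.019 without wild type 6). Carriers and pores did so in 6 of 9 (median 0.057, the ADP/ATP carrier Slc25a4 at -0.51, SE 0.20). Glycolysis genes did so in 12 of 16 (median 0.080, Ldhb at -0.56). The glycolysis median was -0.0047 with the number of mice as a covariate, a fit that sets knockout 1 alone against the wild types.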

How the data were processed

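The authors deposited log2 values per probe set, made with RMA per the submitters' processing notes; background correction and the gene chip annotation used are not given in the sources used here. RNA was amplified from 30 ng with a NuGEN kit, per the labels' protocols. Of 45101 probe sets 34958 carry 1 symbol, 932 several and 9211 none; each gene was read by its probe set with the highest mean, with no filter. limma 3.58.1 in R 4.3.3 compared 3 knockout with 3 wild type arrays over 18194 genes (Benjamini-Hochberg, threshold 0.05). The fit was first tested on simulated data in which every added shift was larger than any member difference. Differences of the size seen in members were therefore not covered by it. Arrays are pools of mice, so p-values measure the spread between pools. Percentiles place a probe set's reading among all genes and, since probes differ in brightness, are only a rough guide to level; RMA can compress small differences. Members and lists were chosen with earlier results of these data known. Named members are the 5 with the smallest unadjusted p in each direction, the catalytic core, isoforms, the extremes of each complex and the assembly factors. Motif searches were added after the data were seen, and the NRF1 string was shortened from 10 to 9 letters after its first shares were seen; both forms are given. Alternatives are given in the closing section.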

Additional observations from a re-analysis of the deposited data

How the results depend on the processing

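Under 14 alternatives 0 members were called. Single probe sets were refitted only after cyclic loess, among probe sets brighter than the median probe set, and with 1 array left out. In those fits 0 member probe sets were called. With the number of mice as a covariate, knockouts 2 and 3 (the only pools of 2) are fitted by the covariate, so that fit sets knockout 1 alone, assumed to vary like the other arrays, against the wild types and is no adjustment for pool size. Over all genes 1 was called in it, 3 with the B and plasma cell level as a covariate and 0 to 3 when 1 array was left out (3 without wild type 6). Of 90 members, 2 had an unadjusted p under 0.05 with a trended, robust fit, against 4.63% of all genes. With the B and plasma cell level, set mostly by wild type 6, 1 member did, against 6.8% of all genes. When 1 array was left out 0 to 1 did, against 3.63% to 5.97% of all genes. The fit with the number of mice gave a median difference of 0.11 over all members. It was 0.19 in complex I, -0.10 in complex II, 0.30 in complex III, 0.026 in complex IV and 0.070 in complex V. The assembly factors stood at 0.27 in that fit. Complex II was -0.11 with the B and plasma cell level. Leaving out 1 array gave -0.036 to 0.070 over all members, 0.00131 to 0.13 in complex I, -0.10 to -0.015 in complex II, -0.040 to 0.15 in complex III, -0.072 to -0.010 in complex IV, -0.050 to 0.065 in complex V and -0.13 to 0.14 in the assembly factors. For other settings the cause was not tested. No paired analysis was possible because the groups share no replicate numbers. The longer NRF1 string gave shares of 22.8% and 4.6% in place of 26.6% and 6.25%. The 6 arrays limit precision: the 95% confidence interval of a member reached a median of 0.28 to either side.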
